A study of Gallus gallus with 6 samples.

Results

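The SLC39 genes encode ZIP proteins, which move zinc into the cytosol from outside the cell or out of organelles. Of 8 SLC39 genes listed by their chicken RefSeq symbols, 7 were matched by NCBI gene ID to the 24098 genes of the deposited files. SLC39A14 is not analysed here. Of the 7, 6 reached a mean level of 1 FPKM and entered the test, which covered 13311 genes in all, and SLC39A12 lay below that level.

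RNA came from entire embryos of the chicken, Gallus gallus, at stage 10 of the Hamburger-Hamilton series, when the neural tube is closing and cranial neural crest cells are leaving it. There were 3 libraries of embryos treated with zinc oxide nanoparticles, called ZnO 1, 2 and 3, and 3 libraries of control embryos, called control 1, 2 and 3. The labels state neither the dose nor the route nor the duration of the exposure, no strain, and no statement of what the controls received. They do not say whether a library is 1 embryo, a pool or a repeat of the same RNA, so part of the spread behind each p-value may be technical. The stage windows written in the labels all begin at 34 hours and end at 42, 43 and 44 hours for ZnO 1, 2 and 3, against 39, 40 and 41 hours for control 1, 2 and 3. If those are true ages, age and treatment cannot be told apart.

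ZIP proteins work against the SLC30 exporters, which carry zinc out of the cytosol, and with metallothioneins, which bind it. SLC39A6 and SLC39A10 are close relatives at the plasma membrane that can form a joint complex in mouse cells, and zebrafish slc39a6 is needed for the movement of gastrula cells. SLC39A8 carries manganese, iron and cadmium as well as zinc, while SLC39A9 and SLC39A13 are known from the Golgi and the early secretory pathway. In mouse, SLC39A10 is repressed by the zinc sensor MTF1.

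All values are FPKM, that is, reads divided by gene model length and by library depth. Whole reads could be solved from the values, giving depths of 18271504 to 18940736 reads for ZnO libraries and 18208501 to 19843561 for control libraries. The libraries did not separate by treatment along their main axis of variation. The first principal component, with 50.8% of the variance, put ZnO 1 at -36.3, ZnO 2 at 17.5 and ZnO 3 at 28.9, against -2.61, -23.4 and 16.1 for control 1, 2 and 3. The second, with 20.6%, did separate the groups, with ZnO 1, 2 and 3 at -20.3, -6.83 and -15.8, against 13.3, 15.3 and 14.4 for control 1, 2 and 3. ZnO 1 also had the lowest mean level of 68 ribosomal protein genes, at -0.58 from the mean of all libraries on the log2(FPKM + 1) scale, against -0.04 to 0.32 in the other 5. The mean gene model length of its reads was 3696 bp, against 3276 to 3435 bp in the others. Marker genes of neural tube, heart, somite, yolk sac endoderm and primitive blood were above 0 in every library wherever they could be matched, which left out GATA1 of the blood list. Because these are bulk samples, fewer cells of a type and less RNA per cell cannot be told apart.

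Of the 7 SLC39 genes, 6 were expressed at middling levels, and SLC39A12 stood apart as nearly silent. Per length, SLC39A11 had the highest mean over the 6 libraries at 23.6 FPKM, higher than 70.7% of the genes tested. SLC39A10 followed at 22.1 FPKM, SLC39A6 at 19.7, SLC39A9 at 16.5, SLC39A8 at 13.99 and SLC39A13 at 9.495, the last higher than 45.7% of the genes tested. SLC39A12 averaged 0.540 FPKM.

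Neighbours at the top of that order could not be ranked beyond their spread. SLC39A11 exceeded SLC39A10 in 5 of 6 libraries, and SLC39A10 exceeded SLC39A6 in 4 of 6. SLC39A6 lay above SLC39A9 in 6 of 6 libraries, and SLC39A9 above SLC39A8 in 6 of 6, although the ranges over libraries overlapped in both cases. SLC39A8 (10.6 to 17.6 FPKM) did not overlap SLC39A13 (8.82 to 10.6 FPKM), and neither did SLC39A13 overlap SLC39A12 (0.327 to 0.934 FPKM).

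**Figure D1:**
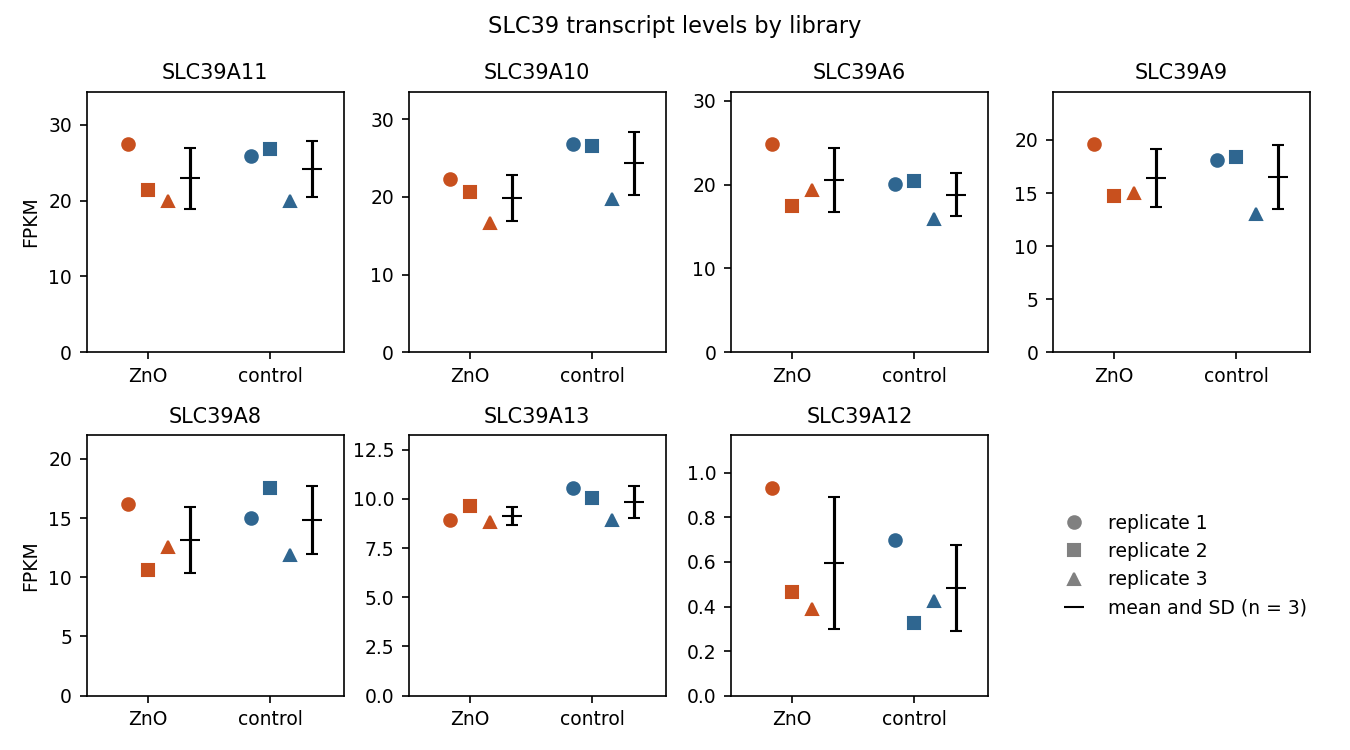
Each panel plots the FPKM of 1 SLC39 gene in the 3 ZnO and 3 control libraries (symbols, by replicate number), with the group mean and SD beside them; vertical axes start at 0 and differ between panels. The groups overlapped for all 7 genes, and SLC39A12 stayed below 1 FPKM in each library.

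Whether embryos exposed to a source of zinc differ from controls in these importers is what the comparison of the groups addresses. It found no SLC39 gene past the threshold, an adjusted p under 0.05 in limma over all 13311 genes on log2(FPKM + 1). Of all genes tested, 0 (0%) passed in limma and 0 in limma-voom on the recovered reads, while 754 (5.66%) had an unadjusted p under 0.05. Among the 6 SLC39 genes, 0 passed and 0 had an unadjusted p under 0.05. The groups of 3 did not overlap for 0 of the 6, where 11.5% of all genes tested had groups that did not overlap. Of the 6, 5 had a lower and 1 a higher mean log2 value in ZnO embryos, with a median log2 fold change of -0.09, against 7464 lower, 5847 higher and a median of -0.03 over all genes tested. Without ZnO 1, 6 of 6 had lower means (median -0.17), against 6825 of 13311 genes. ZnO 1 was the highest ZnO library for every one of the 6 but SLC39A13, so leaving it out lowers their ZnO means by construction.

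SLC39A10 (gene ID 429005), the plasma membrane importer, had the smallest p of the 6. It stood at 22.3, 20.6 and 16.6 FPKM in ZnO 1, 2 and 3, against 26.8, 26.6 and 19.7 FPKM in control 1, 2 and 3. Control 1 and control 2 were above every ZnO library, but control 3 lay below ZnO 1 and ZnO 2. The means were 19.8 ± 2.93 FPKM in ZnO embryos and 24.4 ± 4.07 FPKM in control embryos (SD, n = 3 each). On the log2(FPKM + 1) scale the ZnO minus control difference was -0.28 ± 0.18 SE (95% interval -0.70 to 0.14, limma adjusted p = 0.950). It stayed below 0 in each of 14 alternative analyses, between -0.42 and -0.16. Among these, the changed filters, the replicate block and the residual component could not change the difference itself, which stayed at -0.28. An exact two-sided permutation test gave p = 0.3, where 0.1 is the smallest that 3 against 3 libraries allow.

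SLC39A6 (gene ID 420984), its partner at the membrane, was the 1 gene of the 6 tested with a higher mean in ZnO embryos. Its levels were 24.8, 17.4 and 19.4 FPKM in ZnO 1, 2 and 3, against 20.1, 20.5 and 15.8 FPKM in control 1, 2 and 3. ZnO 1 held the highest value and the other 2 ZnO libraries lay within the control range. The difference was 0.12 ± 0.18 SE on the log2(FPKM + 1) scale (95% interval -0.30 to 0.53, limma adjusted p = 0.975), and it was -0.02 without ZnO 1.

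SLC39A8 (gene ID 430411), the carrier of several metals, had 16.2, 10.6 and 12.6 FPKM in ZnO 1, 2 and 3, against 15.03, 17.6 and 11.9 FPKM in control 1, 2 and 3. ZnO 2 was the lowest library and control 2 the highest, and the groups overlapped. Its log2 difference was -0.17 ± 0.20 SE (95% interval -0.63 to 0.29, limma adjusted p = 0.975). It was -0.32 without ZnO 1 and -0.04 without ZnO 2.

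Of the secretory pathway genes, SLC39A9 was the closest between groups among the 6 tested. SLC39A9 (gene ID 423261) had 19.6, 14.7 and 14.96 FPKM in ZnO 1, 2 and 3, against 18.1, 18.4 and 13.1 FPKM in control 1, 2 and 3. Means of 16.4 ± 2.76 FPKM in ZnO embryos and 16.5 ± 3.01 FPKM in control embryos (SD, n = 3 each) gave a log2 difference of -0.0046 ± 0.19 SE (95% interval -0.43 to 0.42, limma adjusted p = 0.997), whose sign turned when libraries were rescaled to equal sums (0.055) or quantile normalized (0.024). SLC39A13 (gene ID 423183), whose loss in humans causes a connective tissue disorder, varied least of the 6, 1.20-fold between its lowest and highest library. It had 8.95, 9.65 and 8.82 FPKM in ZnO 1, 2 and 3, against 10.6, 10.02 and 8.95 FPKM in control 1, 2 and 3. Control 1 and control 2 exceeded all ZnO libraries, and control 3 fell inside the ZnO range. The log2 difference was -0.10 ± 0.13 SE (95% interval -0.40 to 0.21, limma adjusted p = 0.975).

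SLC39A11 (gene ID 771533), the only member of the gufA subfamily, had 27.5, 21.4 and 19.99 FPKM in ZnO 1, 2 and 3, against 25.9, 26.8 and 19.9 FPKM in control 1, 2 and 3. ZnO 1 was the highest and control 3 the lowest library. The log2 difference was -0.08 ± 0.18 SE (95% interval -0.49 to 0.34, limma adjusted p = 0.980).

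SLC39A12 (gene ID 420514), known from the mammalian brain, was read 83, 43 and 35 times in ZnO 1, 2 and 3, against 62, 29 and 41 times in control 1, 2 and 3. These reads corresponded to 0.934, 0.467 and 0.388 FPKM in ZnO embryos, against 0.696, 0.327 and 0.425 FPKM in control embryos. ZnO 1 and control 1 were the highest libraries of their groups. The exact Poisson 95% intervals of ZnO 1 (0.744 to 1.16 FPKM, counting error only) and of ZnO 2 (0.338 to 0.629 FPKM) did not overlap. These libraries of the same group thus differed by more than counting error. In a limma fit with no filter on low values, over 21281 genes, its log2 difference was 0.10 ± 0.16 SE (adjusted p = 0.962).

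**Figure D2:**
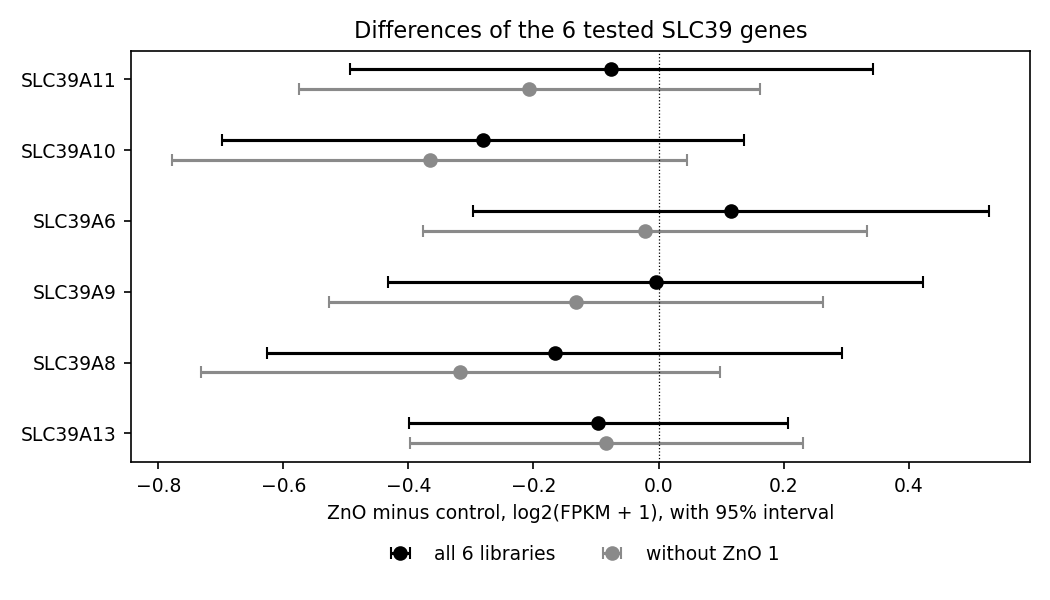
Points give the ZnO minus control difference of the 6 tested SLC39 genes in log2(FPKM + 1), with 95% intervals from limma, for all 6 libraries (black) and without ZnO 1 (grey). All 12 intervals include 0; SLC39A10 lies lowest in both analyses, at -0.28 and -0.37.

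The intervals bound what these libraries can show. The lower bounds of the log2 differences were between -0.70 (SLC39A10) and -0.30 (SLC39A6), and the upper bounds between 0.14 (SLC39A10) and 0.53 (SLC39A6). The 6 tested genes had 704 to 3183 reads per library, and counting error alone gave the log2 ratio of any pair of them an SE of at most 0.073. Without ZnO 1, differences were -0.37 for SLC39A10 (95% interval -0.78 to 0.05), -0.21 for SLC39A11 and -0.13 for SLC39A9, and none passed in limma (adjusted p = 0.380 to 0.957).

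Most of the tested SLC39 genes had the same libraries on top, an order that did not follow the treatment. The 6 tested genes summed to 119, 94.4 and 92.4 FPKM in ZnO 1, 2 and 3, against 117, 120 and 89.4 FPKM in control 1, 2 and 3. ZnO 1, control 1 and control 2 were thus high and ZnO 2, ZnO 3 and control 3 low. Those 3 high libraries held the 3 highest values of SLC39A6, SLC39A8, SLC39A9, SLC39A10 and SLC39A11, each taken alone. The same 3 libraries were the highest for 20.6% of all genes tested (2739 of 13311). SLC39A13 departed from this order, with ZnO 2 above ZnO 1, and so did SLC39A12, whose lowest library was control 2.

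Some other features of the libraries showed the same order. The summed level of the yolk sac endoderm markers did so, but most of its members did not. The 8 yolk sac endoderm markers, led by the apolipoprotein gene APOA1 and the transthyretin gene TTR, summed to 8057, 3466 and 5769 FPKM in ZnO 1, 2 and 3, against 6614, 9466 and 3971 FPKM in control 1, 2 and 3. None of the 8 was at 0 in any library. The 3 libraries with the highest marker sums were also the 3 with the highest SLC39 sums, but the sum rests almost wholly on APOA1 and TTR, the 2 markers whose own values had that order. The other 6 had ZnO 3, and not control 1, among their 3 highest libraries, as for the endocytic receptor gene LRP2 with 21.5, 12.9 and 21.5 FPKM in ZnO 1, 2 and 3, against 11.7, 12.8 and 9.82 FPKM in control 1, 2 and 3. The 3 libraries with the highest SLC39 sums had the 3 lowest scores on the first principal component. The part of these features in the SLC39 levels was not tested.

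**Figure D3:**
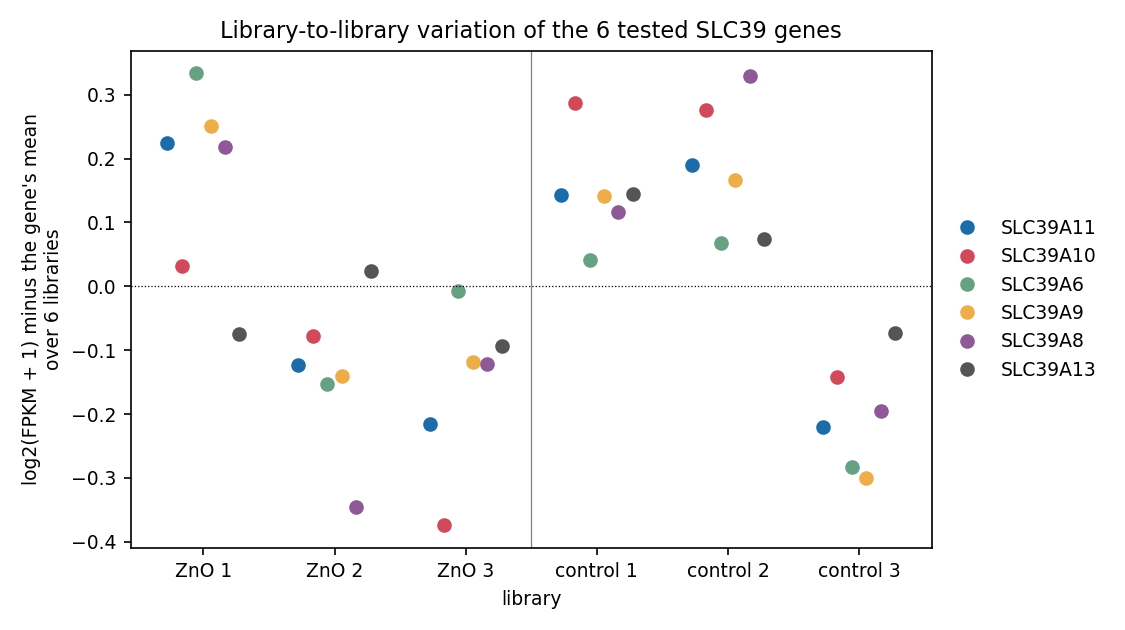
Points give log2(FPKM + 1) of each tested SLC39 gene minus its mean over the 6 libraries, for the 3 ZnO libraries (left) and the 3 control libraries (right). SLC39A6, SLC39A8, SLC39A9, SLC39A10 and SLC39A11 lie above 0 in ZnO 1, control 1 and control 2 and below 0 in the other 3 libraries.

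Within a library, the ratio of 2 SLC39 genes does not depend on depth or on any rescaling of the whole library. All 15 pairs of the 6 tested genes were compared, a step chosen after the values were seen. For 5 of the 15 pairs (33.3%) the 3 ZnO ratios did not overlap the 3 control ratios, where 13.6% of all pairs among the 13181 tested genes above 0 in every library had such groups; the other 130 tested genes were left out because a ratio to 0 is undefined. The pairs share genes and are not independent, and the 5 all contain SLC39A6 or SLC39A10, as 9 of the 15 do. These shares are not like for like. Of the 6 tested SLC39 genes, 5 had the same 3 highest libraries, and a ratio removes what its genes share. The pairs among all genes were not matched for such likeness.

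SLC39A10 was lower relative to SLC39A6 in each ZnO library. The ratio of SLC39A10 to SLC39A6 was 0.898, 1.18 and 0.855 in ZnO 1, 2 and 3, against 1.33, 1.30 and 1.24 in control 1, 2 and 3. ZnO 2 came closest to the controls, and ZnO 1 and ZnO 3 lay well below them. On the log2 scale the gap between ZnO 2 and control 3 was only a little larger than the largest counting SE of a single ratio, 0.052. Both of these ratios carry such an error. The mean log2 ratio was -0.05 ± 0.25 in ZnO embryos and 0.37 ± 0.05 in control embryos (SD, n = 3 each), a difference of -0.42 or 0.750-fold. The exact two-sided permutation p was 0.1, the smallest possible, and 0.3 when adjusted over the 15 pairs, so no pair could pass in this design. Leaving out each library in turn gave differences of -0.56 to -0.33, whose sign was fixed in advance because the groups did not overlap.

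The ratio also lay lower in ZnO embryos when SLC39A10 was set against SLC39A9 or SLC39A11. To SLC39A9 it was 1.14, 1.40 and 1.11 in ZnO 1, 2 and 3, against 1.48, 1.44 and 1.51 in control 1, 2 and 3. To SLC39A11 it was 0.812, 0.964 and 0.830 in ZnO 1, 2 and 3, against 1.04, 0.993 and 0.987 in control 1, 2 and 3. The groups did not overlap in either ratio, though ZnO 2 lay just under the lowest control. On the log2 scale both gaps were smaller than the largest counting SE of the ratio, 0.057 to SLC39A9 and 0.066 to SLC39A11. Against SLC39A8 and SLC39A13 the groups overlapped (exact permutation p = 0.6 and 0.2, two-sided).

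Expressed as a share of the summed FPKM of the 6 genes, SLC39A10 made up 18.7%, 21.8% and 18.0% in ZnO 1, 2 and 3, against 23.0%, 22.2% and 22.0% in control 1, 2 and 3. SLC39A6 made up 20.8%, 18.5% and 21.0% in ZnO 1, 2 and 3, against 17.3%, 17.1% and 17.7% in control 1, 2 and 3. In controls SLC39A10 was the larger of the pair in every library, while in ZnO 1 and ZnO 3 it was the smaller. The other pairs without overlap were SLC39A11 to SLC39A6, lower in ZnO libraries (1.11, 1.23 and 1.03, against 1.29, 1.31 and 1.26), and SLC39A6 to SLC39A8, higher in ZnO libraries (1.53, 1.64 and 1.54, against 1.34, 1.17 and 1.33). For SLC39A11 to SLC39A6 the gap between the groups was also smaller, on the log2 scale, than the largest counting SE (0.057). The gene models differ in length, 7014 bp for SLC39A6, 5671 bp for SLC39A8, 3509 bp for SLC39A10 and 2304 bp for SLC39A11, and the reads of ZnO 1 lay on longer models on average. The part of length in these ratios was not tested.

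Tissue markers were compared in the same fit, and none passed. All 6 neural tube markers had higher means in ZnO embryos, and 4 of the 6 had an unadjusted p under 0.05, against 5.66% of all genes tested. The groups did not overlap for 2 of them, the forebrain transcription factor genes SIX3 and LHX2, against 11.5% of all genes tested. LHX2 had 2.54, 2.93 and 2.22 FPKM in ZnO 1, 2 and 3, against 1.06, 0.531 and 1.57 in control 1, 2 and 3. These low values rest on 19 to 109 reads per library. Without ZnO 1, 5 of the 6 neural tube markers had higher means and 1 a lower mean. SIX3 had 45.98, 44.7 and 29.9 FPKM in ZnO 1, 2 and 3, against 19.6, 13.0 and 28.8 FPKM in control 1, 2 and 3 (limma adjusted p = 0.801). The list summed to 122, 120.2 and 84.0 FPKM in ZnO 1, 2 and 3, against 67.1, 49.4 and 92.7 FPKM in control 1, 2 and 3, so the sums overlapped through ZnO 3 and control 3. Of 5 somite markers 4 had lower means, and the groups did not overlap for 2, TCF15 and MEOX1, both lower in ZnO embryos. The somite markers summed to 70.1, 79.5 and 62.1 FPKM in ZnO 1, 2 and 3, against 85.8, 107 and 92.4 FPKM in control 1, 2 and 3. That sum rests mostly on TCF15 and MEOX1, and the groups overlapped for PAX3, TBX6 and MYF5. TBX6 had the higher mean, 6.14 ± 2.73 FPKM in ZnO embryos and 3.90 ± 0.716 FPKM in control embryos (SD, n = 3 each). Of 5 heart markers 3 had lower means and 2, GATA4 and MYH7, higher ones. The groups did not overlap for 3 of the 5, NKX2-5 and TNNC1 (lower in ZnO embryos) and GATA4 (higher). The heart markers summed to 432, 380 and 373 FPKM in ZnO 1, 2 and 3, against 508, 561 and 434 FPKM in control 1, 2 and 3. That sum rests on the troponin genes TNNT2 and TNNC1, which made up 84.2% to 87.7% of it, and the values of TNNT2 itself overlapped between the groups. Of 7 yolk sac endoderm markers tested, 5 had higher means and 2 lower. The groups did not overlap for 2 of the 7, both higher in ZnO embryos, and 2 had an unadjusted p under 0.05. Of 5 primitive blood markers, 2 had higher means and 3 lower, and the groups overlapped for all 5. Without ZnO 1, 4 of the 7 and 5 of the 5 had higher means. No matched marker of these lists was at 0 in any library, and the part of tissue makeup in the ratios was not tested.

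**Figure D4:**
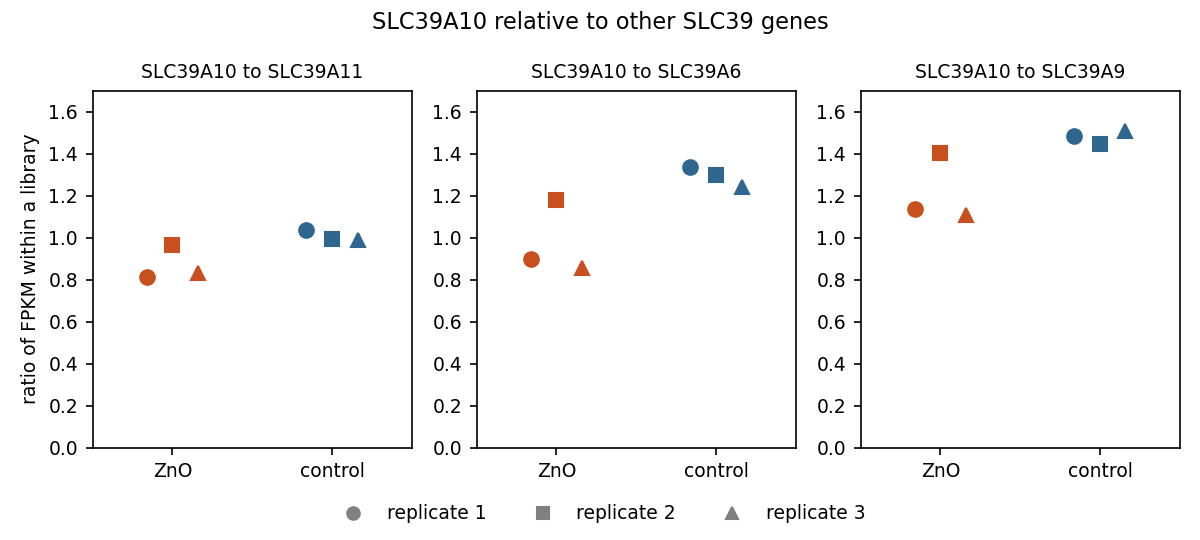
Points give the within-library ratio of SLC39A10 FPKM to that of SLC39A11, SLC39A6 and SLC39A9 in the 3 ZnO and 3 control libraries, by replicate number, on axes that start at 0. In each panel the ZnO ratios lie below all 3 control ratios, with ZnO 2 nearest to them. The ratios to SLC39A8 and SLC39A13, whose groups overlapped, are not drawn, so the likeness of the panels follows from that choice.

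The order of the 3 ZnO libraries in these ratios was not that of the metallothionein genes. MT4, which encodes a zinc-binding metallothionein, had 177, 860 and 1136 FPKM in ZnO 1, 2 and 3, against 211, 187 and 167 FPKM in control 1, 2 and 3. Its paralog MT3 had 83.2, 332 and 516 FPKM in ZnO 1, 2 and 3, against 91.0, 74.9 and 90.3 FPKM in control 1, 2 and 3. ZnO 1, at the control level of both, had a low ratio of SLC39A10 to SLC39A6, and ZnO 2, with high metallothionein levels, had the ratio nearest to control. ZnO 3 went the other way, with the highest levels of both metallothionein genes and the lowest ratio of the 6 libraries (0.855). SLC39A10 itself had 22.3, 20.6 and 16.6 FPKM in ZnO 1, 2 and 3, falling as both metallothionein genes rose. SLC39A11 and SLC39A12 had that order too, and SLC39A6, SLC39A8, SLC39A9 and SLC39A13 did not. The first principal component also ran in the order of these libraries, at -36.3, 17.5 and 28.9 for ZnO 1, 2 and 3. The share of all genes tested that fell in this order is not given here. Control 3, with both metallothionein genes at the control level, had 19.7 FPKM of SLC39A10, below ZnO 1 and ZnO 2. A link between these levels was not tested. Reads that match both MT paralogs may have been lost or misassigned in the counting.

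By likeness of profile over the 6 libraries, the genes nearest to SLC39A11, the listed member with the highest level, included GLT8D1 and B3GNT2. Their root mean square distances were 0.02 and 0.03 on the centred log2(FPKM + 1) scale, among 9571 candidates averaging 5 FPKM or more. GLT8D1 had 30.3, 23.6 and 22.5 FPKM in ZnO 1, 2 and 3, against 28.9, 28.7 and 21.8 FPKM in control 1, 2 and 3. Within the family SLC39A9 was nearest to SLC39A11, at a distance of 0.05 and rank 21. Nearest to SLC39A10 were LOC112532597, TWSG1 and LRCH2, at 0.03 to 0.06. TWSG1, which encodes an extracellular modulator of BMP signalling, had 34.3, 30.8 and 24.6 FPKM in ZnO 1, 2 and 3, against 39.1, 43.1 and 28.9 FPKM in control 1, 2 and 3. With 6 libraries and one strong shared axis, close profiles are common, and SLC39A6 ranked only 2666th in likeness to SLC39A10.

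Among the SLC30 exporters, 9 of 10 listed genes were matched and 8 tested. Of these, 4 had higher and 4 lower means in ZnO embryos, 0 passed, and the median log2 fold change was 0.01. Without ZnO 1, 3 were higher and 5 lower. The smallest p belonged to SLC30A2, an exporter into vesicles, with 32.6 ± 11.97 FPKM in ZnO embryos and 19.5 ± 11.7 FPKM in control embryos (SD, n = 3 each; limma adjusted p = 0.940). SLC30A5 (28.7 ± 5.12 FPKM in ZnO embryos and 37.5 ± 9.97 FPKM in control embryos) and SLC30A6 (15.96 ± 5.18 FPKM in ZnO embryos and 19.2 ± 1.06 FPKM in control embryos), which act together in the secretory pathway, came next. The exporter list summed to 161, 100.2 and 113 FPKM in ZnO 1, 2 and 3, against 120, 144 and 91.4 FPKM in control 1, 2 and 3, so ZnO 1 and control 2 were high for exporters too.

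In the list of zinc sensing and binding genes, 5 of 6 entries were tested, 4 had higher means in ZnO embryos, and 0 passed. MT3 and MT4 each had a limma adjusted p of 0.861. Without ZnO 1, the library without the higher metallothionein level, both passed, among 4 of 13311 genes, and leaving it out raises their difference by construction. After MT3 and MT4, the smallest p belonged to CA2, a zinc-dependent carbonic anhydrase, with 185 ± 126 FPKM in ZnO embryos and 94.3 ± 10.9 FPKM in control embryos (SD, n = 3 each). CA2 had 92.0, 135 and 328 FPKM in ZnO 1, 2 and 3, against 107, 86.7 and 89.5 FPKM in control 1, 2 and 3. ZnO 1 thus lay within the control range of CA2, and ZnO 3 was by far the highest library. ZnO 3 was also highest for the summed primitive blood markers. Their sum was 502, 791 and 1424 FPKM in ZnO 1, 2 and 3, against 957, 733 and 901 in control 1, 2 and 3. The part of blood content in the CA2 level was not tested. MTF1, the sensor, had 2.28 ± 0.703 FPKM in ZnO embryos and 1.78 ± 0.478 FPKM in control embryos (limma adjusted p = 0.966). Of 11 genes linked to iron or manganese, metals that SLC39A8 also carries, 10 had higher means in ZnO embryos and 0 passed. Their median log2 fold change was 0.15, where 5847 of all 13311 genes tested had higher means and the median was -0.03. Without ZnO 1, 7 of the 11 had higher means. They include TFRC, the transferrin receptor gene (43.5 ± 8.18 FPKM in ZnO embryos and 29.6 ± 5.50 FPKM in control embryos), SLC11A2, which carries iron and manganese (179 ± 74.5 FPKM in ZnO embryos and 127 ± 18.8 FPKM in control embryos), and the iron exporter gene SLC40A1 (8.09 ± 2.71 FPKM in ZnO embryos and 6.06 ± 0.779 FPKM in control embryos). ZnO 1 was the highest of the 6 libraries for these 3 genes.

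Genes tied to SLC39A6 and SLC39A10 in cell movement were divided, with 3 of 6 tested higher, 3 lower and 0 past the threshold (2 higher and 4 lower without ZnO 1). SNAI2, a repressor that acts in the release of neural crest cells, had 21.9, 20.6 and 23.5 FPKM in ZnO 1, 2 and 3, against 34.9, 33.2 and 37.0 FPKM in control 1, 2 and 3 (log2 difference -0.65 ± 0.14 SE, limma adjusted p = 0.746). Its groups did not overlap, as for 11.5% of all genes tested. CDH1, an epithelial cadherin gene, had 72.8 ± 21.4 FPKM in ZnO embryos and 52.0 ± 8.17 FPKM in control embryos, and SNAI1 had 16.8 ± 6.43 FPKM in ZnO embryos and 22.8 ± 3.15 FPKM in control embryos (SD, n = 3 each). The groups overlapped for both genes (limma adjusted p = 0.939 for CDH1 and 0.943 for SNAI1). ZnO 1 was the highest library for CDH1 and lay above control 1 and control 3 for SNAI1.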

How the data were processed

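Expression was measured by RNA sequencing in 6 whole-embryo libraries. The tools were TopHat2 2.0.12, Bowtie2 2.2.3 and HTSeq 0.6.1, per the submitters' processing notes. The build listed there is mm10, which is mouse, although RefSeq's GRCg7b table has 19704 of the 24098 gene IDs (81.8%) as chicken genes. That table supplied symbols only, and no coordinates are printed. Annotation and strand setting are not given in the sources used here, and antisense genes that overlap could therefore share reads. The authors' deposited values behave as FPKM, 1 value per gene and library. Whole reads and model lengths were solved from the steps of these values: each of the 13311 tested genes came out whole in all 6 libraries to within 0.005 reads, against 2 of 500 genes with deliberately wrong depths.

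The test used genes averaging 1 FPKM or more on log2(FPKM + 1), a scale that understates changes of low genes. It was run in R 4.3.3 with limma 3.58.1 (two-sided, empirical Bayes with trend, no covariate, Benjamini-Hochberg over all genes, threshold 0.05). The fit was tested on simulated data. The simulated reads varied independently for each gene, without the shared axis of these libraries, so that test does not cover such an axis. Errors are SD for group means and SE for log2 differences, which are ZnO minus control. The SLC39 genes and the other lists were chosen with earlier results of these data known. Named genes are all SLC39 members, up to 3 genes with the smallest p per list described, MT3 and MT4, MTF1 as the sensor, and the 3 nearest profiles to 2 members, of which 1 gene is not reported here; APOA1, TTR, LRP2 and the heart, somite and neural tube markers were named after their values were seen. SLC30A1, ZNG1A, GSK3B and GATA1 are not analysed here. Alternatives covered pseudocount, filters, scaling, replicate block, limma-voom and leaving out each library.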

Additional observations from a re-analysis of the deposited data

How the results depend on the processing

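Across 14 alternatives for each of 6 SLC39 genes, 75 of 84 log2 differences kept their direction and side of the threshold, and none passed (lowest limma adjusted p = 0.223). The changed filters, the replicate block and the residual component leave each log2 difference as it was, so its direction there was fixed in advance. SLC39A8, SLC39A10 and SLC39A13 stayed below 0 throughout. SLC39A9 turned positive with libraries rescaled to equal sums (0.055) and with quantile normalization (0.024), and ranged from -0.16 to 0.077 over the fits that left out 1 library. In those fits SLC39A11 ranged from -0.21 to 0.013 and SLC39A6 from -0.022 to 0.22. The cause was not tested. Genes past the threshold numbered 0 to 4 when 1 library was left out, the 4 without ZnO 1, and genes with an unadjusted p under 0.05 numbered 396 to 1948. With no filter on low values, 1153 of 21281 genes had an unadjusted p under 0.05. With the first residual component as covariate, chosen after the data were seen and drawn from the residuals of the same comparison, 2792 had an unadjusted p under 0.05, 23 genes passed, and SLC39A10 was the 1 member with an unadjusted p under 0.05 (limma adjusted p = 0.223). Deviations of same-numbered libraries from their group means had correlations of -0.03, -0.36 and 0.41. With 3 libraries per group these values neither show nor exclude that the numbers pair them. With the replicate block 0 genes passed and 758 had an unadjusted p under 0.05.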

Other observations

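Of the SLC39 genes in the RefSeq table, SLC39A3 and SLC39A5 were also measured; they were looked at after their values were seen. SLC39A5, known in mouse as an importer of gut and pancreas, was the most abundant SLC39 gene measured, with 93.6, 33.6 and 50.6 FPKM in ZnO 1, 2 and 3, against 34.9, 58.5 and 22.7 FPKM in control 1, 2 and 3. ZnO 1 and control 2 were the highest libraries of their groups, as they were for the summed yolk sac endoderm markers. SLC39A3, a plasma membrane importer, had 21.9, 11.3 and 8.35 FPKM in ZnO 1, 2 and 3, against 14.1, 22.2 and 11.4 FPKM in control 1, 2 and 3, again with ZnO 1 and control 2 highest in their groups. Neither passed in limma (adjusted p = 0.962 for SLC39A5 and 0.975 for SLC39A3).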
